A study of Mus musculus with 20 samples.

Results

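The carboxylesterases described here are 10 mouse genes, Ces1b, Ces1c, Ces1d, Ces1e, Ces1f, Ces1g, Ces2a, Ces2c, Ces2e and Ces3a, taken by symbol from the deposited RNA-seq tables and joined by Ensembl gene identifier. All 10 were listed in the male table, which holds 56884 genes, and in the female table, which holds 18149. Livers came from mice of both sexes at 11 to 14 weeks of age. Per sex, RNA-seq covered 3 WT and 3 Midn-T livers and ATAC-seq 2 WT and 2 Midn-T livers. The genotype label is Midn XTR for the WT mice and Midn TR for the Midn-T mice. The XTR cassette is a gene trap that is silent in its first orientation and stops the Midn transcript once Cre has inverted it. Cre was driven by the Albumin promoter, which the authors used to set the trap selectively in hepatocytes. The state of the allele in other liver cells is not given in the sources used here. Whether the WT mice also carried Cre is not given in the sources used here.

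Carboxylesterases are serine hydrolases that split ester, amide and thioester bonds, and most of them reside in the endoplasmic reticulum through a retention signal at the end of the protein. In liver they release the active form of many ester prodrugs, clear ester drugs and insecticides, and hydrolyse triacylglycerol and cholesteryl esters. The mouse genes arose by repeated local duplication and stand in tandem on chromosome 8.

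The deposited RNA-seq tables give for each gene 1 mean normalized count over the 6 samples of a sex, WT and Midn-T together. Values of single samples are not in the columns used, so the levels below have no SD, library depth is unknown, and no test between WT and Midn-T livers was made. The other columns hold the authors' own comparison of the genotypes and were not used. The means summed to 3.03e+07 in the male table and 3.08e+07 in the female table, and the 10 highest genes held 15.5% and 18.3% of these sums. The hepatocyte markers Alb, Apoa1, Ttr, Cps1 and Serpina1c had means from 72980 to 1726242 in males and from 55892 to 2332943 in females. The 3 bile duct markers Krt19, Krt7 and Epcam summed to 80.5 in males and 128 in females, and the pancreatic acinar markers Cpa1, Prss2 and Pnlip summed to 1.97 in males and were not listed in females. The 4 Kupffer cell markers summed to 6715 and 7153, the 3 markers of sinusoidal endothelium to 9768 and 11341, and the 3 stellate cell markers to 8651 and 11321, males first. The tissue is bulk liver, so fewer cells of a type and less RNA per cell cannot be told apart.

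The 10 genes fall into 2 groups on chromosome 8 of GRCm39. The 6 Ces1 genes lie on the minus strand between 93780578 and 94063953, a span of 283 kb. The 3 Ces2 genes and Ces3a lie on the plus strand between 105460630 and 105789243, a span of 329 kb, and 11.4 Mb separates the groups. Ces1e (ENSMUSG00000061959), known as egasyn, which holds beta-glucuronidase in the endoplasmic reticulum, occupies 93927846 to 93956247 between Ces1d and Ces1f.

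**Figure D1:**
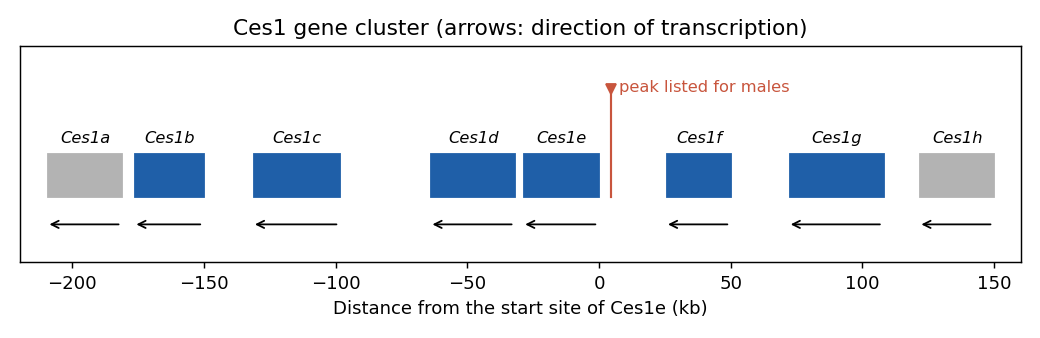
Map of the Ces1 genes on chromosome 8, with distance from the Ces1e start site in kb on the horizontal axis. Boxes are annotated genes and the mark is the listed male ATAC-seq peak, which spans 4.19 to 4.69 kb from the Ces1e start, between Ces1e and Ces1f.

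Among the listed ATAC-seq peaks, 1 was nearest to a carboxylesterase. The share of all genes nearest to a listed peak was not computed, so this count cannot be called high or low. ATAC-seq measures chromatin that the Tn5 transposase can enter, and the deposited lists name peaks of 500 bases that the authors selected between WT and Midn-T livers. The male list holds 179 peaks selected at a raw P value of 0.05, and the female list holds 217 selected at an FDR of 0.1, so the lists differ in stringency. For 5 of the 8 ATAC-seq samples the title contradicts the library name in sex or genotype, and samples were grouped here by library name. Which label the authors followed for their lists is not given in the sources used here. The paper reports that no male peak passed the FDR cut-off applied to females, and it treats the male list as exploratory. The male peak nearest to a carboxylesterase is therefore listed without having passed correction for multiple testing. This male peak lies at chr8:93960438-93960937. Its midpoint is 4.44 kb upstream of the Ces1e start site, it overlaps 0 annotated genes, and its closest neighbours are Ces1e at 4191 bases and the pseudogene Gm45727 at 4344 bases. No female-listed peak was nearest to a member, and the closest one lay 834 kb from the Ces1g start. For the Ces2 and Ces3 genes the closest listed peak of either sex was at least 4952 kb away. The lists hold only selected peaks, so chromatin that is equally open in both genotypes is not in them.

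The 300 bases of this peak from chr8:93960564-93960863 (GRCm39, plus strand) are shown because it is the only listed peak beside a member. Capitals mark TGACCT, the reverse complement of AGGTCA, the core element bound by many nuclear receptors. The window was placed to hold this match.

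Ces1e peak: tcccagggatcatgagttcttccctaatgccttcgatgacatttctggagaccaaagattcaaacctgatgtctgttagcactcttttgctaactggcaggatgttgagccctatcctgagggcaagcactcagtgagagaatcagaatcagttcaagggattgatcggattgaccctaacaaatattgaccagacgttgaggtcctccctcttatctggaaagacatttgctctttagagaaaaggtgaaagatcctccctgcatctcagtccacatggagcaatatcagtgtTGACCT

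AGGTCA or its reverse complement occurred in 32.8% of the 396 listed peaks and in 16.3% of 32851 RefSeq promoters (GRCm38.p6, 250 bases before to 50 after the start). Promoters and peaks differ in length, so the shares are not compared. TATAAA, the TATA box, was found in 13.6% of the promoters and 17.2% of the peaks. TGTTTAC, bound by FOXA factors, was found in 3.65% and 6.06%, CAAAGTCCA, bound by HNF4A, in 0.475% and 1.01%, and TTGCGCAA, bound by C/EBP factors, in 0.183% and 0.253%. All were read as exact letters on both strands. The promoter table held 7 of the 10 members and had no entry for Ces1d, Ces1f and Ces3a. TATAAA was in the Ces1g promoter, AGGTCA in that of Ces2a, and the other 3 motifs were in none of the 7. A match is a run of letters and not a bound site.

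The bases upstream of Ces1e are printed as the reference for the gene with the peak (chr8:93229620-93229869 of GRCm38.p6, minus strand, the 250 bases before the start). None of the 5 motifs is in them.

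Upstream of Ces1e: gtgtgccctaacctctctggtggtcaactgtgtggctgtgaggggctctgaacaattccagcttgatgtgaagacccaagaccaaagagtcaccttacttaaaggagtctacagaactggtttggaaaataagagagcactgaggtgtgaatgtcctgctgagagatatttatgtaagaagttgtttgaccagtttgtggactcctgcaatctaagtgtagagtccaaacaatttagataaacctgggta

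Ces1b and Ces1c are shown next because their upstream bases were the most alike among the 7 members with a promoter entry. Ces1d, Ces1f and Ces3a could not be compared. The levels per length of Ces1b and Ces1c lay far apart. Among the 6 Ces1 members, Ces1c was the highest and Ces1b the lowest. Over the 300-base promoters the pair was identical at 253 of 285 aligned bases, 88.8%, against 42.2% to 68.2% for the other 20 pairs. The gap costs of these alignments were set after the output of cheaper costs was seen. With those first costs the pair was 95.3% identical over 211 aligned bases and the other pairs were 68.8% to 78.5%, so the pair was highest with both. Ces1b has 2 promoter entries, and the 88.8% is for entry 1 while the 95.3% is for entry 2. The sizes differed between the settings, which differed in costs and in how an entry was chosen. When gaps at the ends carried no cost, a setting also added after values were seen, the pair was 92.7% identical over 273 aligned bases. The 250 bases below were aligned in that way and were 93.3% identical over 223 aligned bases. Capitals mark bases that differ or have no partner in this alignment. The minus-strand windows are chr8:93079941-93080190 for Ces1b and chr8:93131284-93131533 for Ces1c, in GRCm38.p6.

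Upstream of Ces1b: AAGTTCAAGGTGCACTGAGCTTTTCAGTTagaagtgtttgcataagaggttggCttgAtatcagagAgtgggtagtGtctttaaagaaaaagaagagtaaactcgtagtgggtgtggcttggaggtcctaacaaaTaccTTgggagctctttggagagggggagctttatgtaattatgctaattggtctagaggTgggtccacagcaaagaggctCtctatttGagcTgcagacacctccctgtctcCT
Upstream of Ces1c: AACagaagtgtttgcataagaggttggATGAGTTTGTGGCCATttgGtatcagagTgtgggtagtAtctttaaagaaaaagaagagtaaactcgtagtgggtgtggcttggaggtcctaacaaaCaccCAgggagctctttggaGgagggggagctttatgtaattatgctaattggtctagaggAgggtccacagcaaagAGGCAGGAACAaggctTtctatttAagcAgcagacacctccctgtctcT

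Ces1c (ENSMUSG00000057400), the carboxylesterase that mouse liver secretes into plasma, was the highest member. Its mean normalized count was 62029 in males and 91024 in females, rank 53 and rank 32 of all genes listed. Ces1b (ENSMUSG00000078964) had 3026 and 2728. Per kb of longest transcript the Ces1c level was 52.7 times that of Ces1b in males and 85.7 times in females. The longest Ces1b transcript has 4806 bases against 1871 for Ces1c, and per kb of coding sequence the ratios were 21.0 and 34.2.

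The other Ces1 members lay between these levels. Ces1d (ENSMUSG00000056973), also called triacylglycerol hydrolase and involved in the mobilisation of stored lipid for VLDL, had a mean of 24734 in males and 23880 in females. Ces1f (ENSMUSG00000031725), a lipid hydrolase of the endoplasmic reticulum, had 14143 and 11630. Ces1g (ENSMUSG00000057074), also called Es-x and linked to hepatic triacylglycerol and cholesterol handling, had 6604 and 8281. Ces1e had 4276 in males and 3402 in females, rank 1026 and rank 1355. Per kb of longest transcript, Ces1d stood 3.51 times above its neighbour Ces1e in males and 4.26 times in females.

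Among the Ces2 genes, whose products favour esters with a small acyl and a large alcohol group, Ces2a (ENSMUSG00000055730) was highest. It had a mean of 10419 in males and 7945 in females. Ces2e (ENSMUSG00000031886) had 3557 and 4066, and Ces2c (ENSMUSG00000061825) had 1858 and 794. Per kb of longest transcript Ces2a was 4.93 times Ces2c in males and 8.78 times in females. Ces3a (ENSMUSG00000069922), a liver carboxylesterase of a further subfamily, had 49644 in males and 24097 in females, rank 67 and rank 144.

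**Figure D2:**
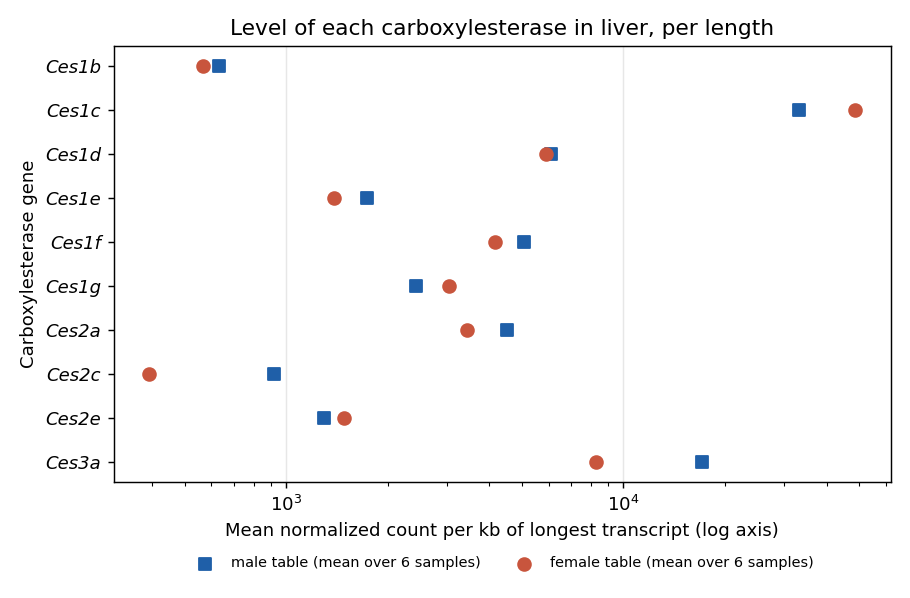
Mean normalized count per kb of longest transcript (horizontal log axis) for each of the 10 genes (vertical axis), with squares for the male table and circles for the female table. Each point is 1 pooled mean over 6 samples, so there are no error bars; Ces1c is furthest right in both tables, and Ces2c and Ces3a have the widest gaps between the tables.

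Per kb of longest transcript the order from the highest in males was Ces1c, Ces3a, Ces1d, Ces1f, Ces2a, Ces1g, Ces1e, Ces2e, Ces2c and Ces1b. In females Ces2e stood above Ces1e and Ces1b above Ces2c, with the rest in the same order. Without a spread over samples, no neighbours in either order can be said to differ. Per kb of coding sequence, Ces1b and Ces2c changed places in males, and in females Ces1d with Ces3a and Ces1g with Ces2a. In females Ces3a and Ces1d had a ratio of 0.998 on that scale.

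The 10 genes held 0.595% of all normalized counts in males and 0.578% in females. The 6 Ces1 genes made up 63.7% of the members' sum in males and 79.3% in females, the 3 Ces2 genes 8.78% and 7.20%, and Ces3a 27.5% and 13.5%. Ces1c alone made up 34.4% and 51.2%. These are shares of counts and not of molecules, since a longer transcript gives more reads.

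The male and female values stand side by side as a description, because the tables were normalized separately and sex cannot be told apart from that processing. Each mean was divided by the total of its table. Over the 18132 genes above 0 in both tables the median male over female ratio was 0.965, with quartiles of 0.804 and 1.10. The female table lists no mean below 6.61, while the male table goes down to 0. Genes low in females are therefore missing from this comparison, and genes low in males are not. What this does to the shares of all genes in each direction was not tested. A male share at least 1.5 times the female share was met by 726 of these genes, 4%, and by 2 of the 10 carboxylesterases, Ces2c at 2.38 and Ces3a at 2.09. The reverse was met by 11.5% of genes and by 0 carboxylesterases, the closest being Ces1c at 1.44 times higher in females. The fold of 1.5 was chosen after the values were seen.

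The male share was above the female share for 7 of the 10 genes, against 43.5% of all genes. Ces2a had a ratio of 1.33, Ces1e 1.28, Ces1f 1.24, Ces1b 1.13 and Ces1d 1.05. Ces2e had 0.889, Ces1g 0.810 and Ces1c 0.692. The members' median was 1.18.

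**Figure D3:**
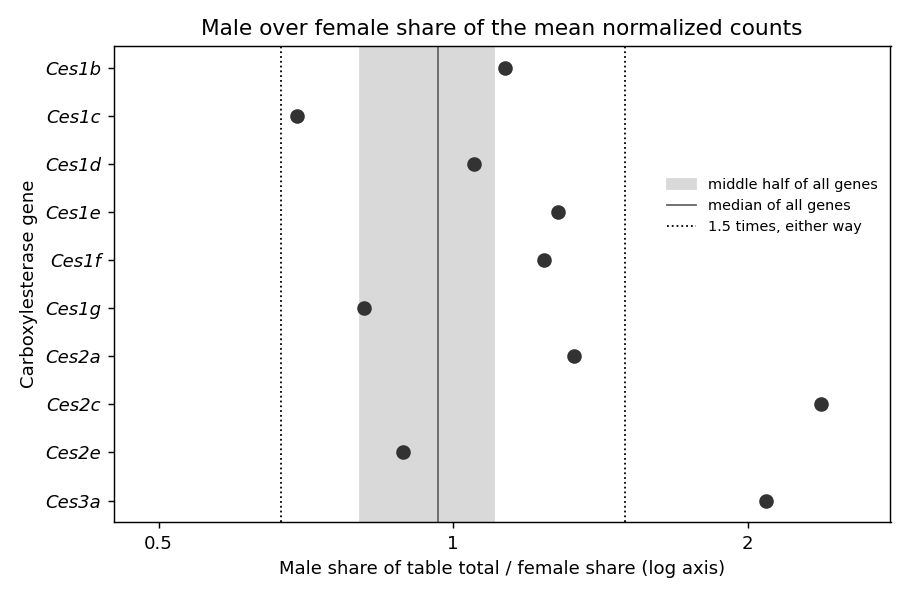
Male over female ratio of each gene's share of the table total (log axis), with a point for each of the 10 carboxylesterases and the median and quartiles of all 18132 genes for reference. Ces2c and Ces3a lie past 1.5 and Ces1c lies lowest, at 0.692; no error can be drawn from pooled means.

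Of the other 10 carboxylesterase genes, all were listed in the male table and 6 in the female table, where the lowest listed mean was 6.61. Ces3b, the neighbour of Ces3a, had a mean of 12619 in males and 9963 in females and was above the lowest member per kb in both. Ces2g had 1288 and 1774 and was above the lowest member in females. Male over female shares of the genes listed in both were 7.46 for Ces2b, 3.83 for Ces4a and 2.79 for Ces1a. Their female means of 7.61, 15.3 and 7.12 were near the lowest listed. The shares were 1.29 for Ces3b, 0.838 for Ces2h and 0.738 for Ces2g. Ces5a was listed at 0 in males. All Ces genes listed together held 0.642% of the male table and 0.616% of the female table.

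The proteins follow the gene groups. Identity was computed on proteins translated from the canonical coding exons, which were 554 to 571 residues long, and 45 pairs were compared. Within Ces1 it was 63.1% to 85.9%, the highest for Ces1b and Ces1c, and within Ces2 76.3% to 78.5%. Between Ces1 and Ces2 it was 44.7% to 51.0%, and Ces3a was 43.4% to 47.3% identical to the Ces1 proteins and 46.5% to 47.8% to the Ces2 proteins. Ces1b and Ces1c were the lowest and the highest of the Ces1 members in level. They were the pair most alike in protein. In upstream bases they were the most alike among the 7 members with a promoter entry, which leaves out Ces1d and Ces1f.

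**Figure D4:**
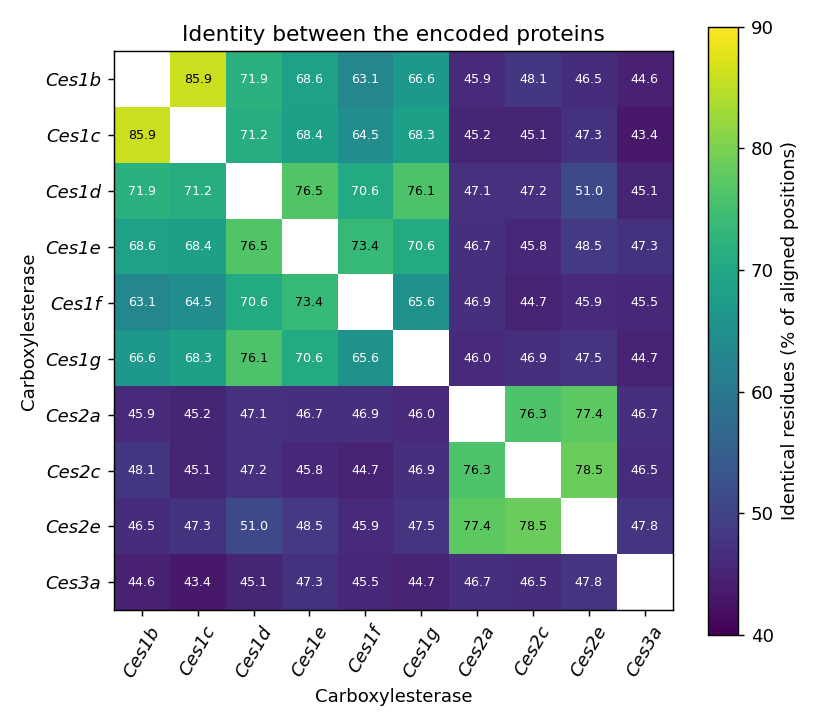
Percent identity of the proteins for each pair of the 10 carboxylesterases, both axes listing the genes by group. The Ces1 block is 63.1% to 85.9% and the Ces2 block 76.3% to 78.5%, while pairs across groups are at most 51.0%.

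Near-identical copies bear on how reads were counted. Reads were 150-base pairs, and the authors counted those that mapped to 1 place. The longest exact stretch shared by the coding sequences of any 2 members had 118 bases, in Ces1b and Ces1c, and is printed because it is shorter than a read.

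Shared by Ces1b and Ces1c: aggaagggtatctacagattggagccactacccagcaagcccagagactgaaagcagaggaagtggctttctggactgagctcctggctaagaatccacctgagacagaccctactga

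Of the 100-base windows of the canonical transcripts, 58.2% of those of Ces2c occurred exactly in another annotated locus, mostly the long non-coding gene Gm64957 (56.9%) and the pseudogene Ces2d-ps (15.7%), which overlap each other. The share was 10.7% for Ces2a and 9.04% for Ces3a, the latter with Ces3b. It was 1.35% for Ces1c, 0.510% for Ces1b and 0 for Ces1d, Ces1e, Ces1f, Ces1g and Ces2e. These loci are those of GENCODE M39, while the authors counted on an earlier Ensembl release, so Gm64957 and others may not be genes in their annotation. How many reads of Ces2c, Ces2a and Ces3a were left uncounted or went to a copy is not known, and their levels are given as uncertain. Ces2c and Ces3a are also the members past 1.5 between the tables. The part of shared sequence in those ratios was not tested.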

How the data were processed

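RNA-seq reads were aligned by the authors to GRCm39 with STAR (2.7 in the submitters' processing notes). The authors counted uniquely mapped reads on the reverse strand per Ensembl gene (HTSeq) and ran DESeq2 within each sex. The deposited signal is the mean over 6 samples of counts divided by size factors. The remaining RNA-seq columns hold the authors' log2 fold changes of the genotypes, standard errors, Wald statistics and p-values, and the ATAC-seq lists hold a direction; neither was used. For ATAC-seq, the authors removed duplicates, merged MACS2 peaks, set them to 500 bases, counted reads with featureCounts and compared them with edgeR.

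Here the means were divided by transcript length (GENCODE M39, GRCm39) or by the table total, and peaks were assigned to the nearest protein-coding start site. Proteins were aligned with BLOSUM62 (gap open 10, extend 0.5) and promoters with match 1, mismatch -1, gap open 5 and extend 1. Python 3.11.15, pandas 2.3.3, numpy 2.4.6, Biopython 1.88 and matplotlib 3.10.9 were used. The ratio and motif steps were tested on simulated data. Named were all 10 members, other Ces genes above the lowest member per length, and genes between a member and a listed peak. Outside this rule, Ces1a, Ces2b, Ces2h, Ces4a, Ces5a, Gm64957, Ces2d-ps and 4 other hydrolases were named after their values were seen. Marker genes were named from their lists. The members and lists were chosen with earlier results of these data known. Depth per sample is unknown, so no interval is given. Protein motifs and endings were not analysed here.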

Additional observations from a re-analysis of the deposited data

How the results depend on the processing

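Of 23 alternatives, 13 left their value the same, 10 moved it and 0 reversed it. The members' share of the male total was 0.596% over genes listed in both tables, 0.705% without the 10 highest genes and 0.622% without mitochondrially encoded genes, and the share of the female total was 0.708% and 0.603% under the last 2, each from a smaller total. The median protein identity was 47.5%, or 49.5% with gap open 5 and extend 2. Promoter identity of Ces1b and Ces1c was 95.3% with gap open 2, extend 0.5 and the entry of highest identity, and the other pairs were then 68.8% to 78.5%. With free end gaps it was 92.7%, and the other pairs were not compared in that way because unlike promoters then align over few bases or none. The cheaper costs were tried first, and those in use, like the free end gaps, were chosen after output was seen. Coding length and translated proteins were likewise added after the files were seen. Ces1c was the highest member under every length tried, 7 members were higher in males under all 3 scalings, and the peak counts were the same under both other assignments. No paired analysis was possible because the tables hold no column of a single sample, and for the same reason no replicate was left out.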

Other observations

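A list of 14 other hydrolases of lipid or drug esters was listed in full in both tables. The male share was higher for 3 of them, against 43.5% of all genes. Ratios ran from 0.132 to 1.29 with a median of 0.844, against 0.965 over all genes. The ratio of 0.132 was that of Pnpla3, from low means of 17.0 in males and 131 in females. The next lowest ratio was 0.601, for Bche. A female share at least 1.5 times the male share was met by Pnpla3, Lipc, Bche and Pon1, named after their values were seen, and by 11.5% of all genes. The reverse was met by 0 of the 14 and by 4% of all genes. These ratios are descriptions of separately normalized pooled means, with no spread.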
